A study of Mus musculus with 2 samples.

Results

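A set of 10 genes of the fibroblast growth factor (FGF) system was examined, 5 ligand genes (Fgf1, Fgf2, Fgf7, Fgf10 and Fgf18) and 5 receptor genes (Fgfr1, Fgfr2, Fgfr3, Fgfr4 and Fgfrl1). The set was chosen by name, as all probe sets annotated to exactly 1 gene where that gene was one of the 10, which gave 23 of the 34945 probe sets and 10 of the 18193 genes compared. The cells were bEnd3, a BALB/c mouse endothelial line from brain microvessels of the cerebral cortex that is transformed by polyoma middle T antigen. One group, Smad4-siRNA, received retrovirus carrying an siRNA against Smad4, the shared partner of the signalling Smads of the TGF-β and BMP pathways. The other, Control-siRNA, received retrovirus carrying a control siRNA. Both viruses came from PLAT-E packaging cells, and both groups were selected with puromycin and grown in medium with fetal calf serum. Each group had 1 Affymetrix array, hybridised with pooled material of 2 infections. They are called the Smad4-labelled array and the control array here. With no replicates, no difference was checked against a spread between samples, no test was possible, and having only 1 array a group limits every value's precision.

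FGF ligands are secreted proteins that bind heparan sulphate and receptor tyrosine kinases at the cell surface. Bound receptors signal through docking proteins to the Ras, ERK, PI3K and phospholipase C pathways, which in turn induce feedback inhibitors such as the Sprouty proteins. In vessels, FGF signalling is known for its support of endothelial growth and junctions, while in many tissues mesenchymal cells supply FGF ligands to neighbouring epithelium.

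Signals are given in the arbitrary units of the array after quantile normalization. The floor, used in place of detection calls, was the array median of 22.8, and a gene or probe set below it on both arrays gets no fold. A fold with 1 side below the floor is a lower bound, and a difference was called at 2-fold or more, bounds included. Log2 ratios run as Smad4-labelled minus control. A gene is represented by the probe set with the highest mean log2 signal over both arrays, called its brightest, which need not have the highest signal on 1 array. The technical error is the pooled SD between probe sets of a gene, 0.47 on the log2 scale from 4546 genes, which covers neither culture nor array.

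The labels were only partly borne out by the arrays. The 3 Smad4 probe sets had log2 ratios from 0.25 to 0.58, of which 2 are below the technical SD. As deposited they were -0.12, 0.21 and -0.07, so the direction depended on the scaling, and no ratio was as low as a 2-fold reduction. Xist, the RNA that coats the inactive X chromosome of female cells, had a signal of 4476 on that array and 20.7 on the control array in its brightest probe set, while the Y-linked gene Eif2s3y had 0.35 on the Smad4-labelled array and 324 on the control array. Endothelial markers reached the floor for 6 of 15 genes on the Smad4-labelled array and 14 of 15 on the control array, with summed signals of 499 on the Smad4-labelled array and 22998 on the control array. Fibroblast markers reached it for 9 of 11 on the Smad4-labelled array (summed signal 21132) and 1 of 11 on the control array (summed signal 154). Pericyte and smooth muscle markers did so for 5 of 10 on the Smad4-labelled array (summed signal 3225) and 2 of 10 on the control array (summed signal 105). For comparison, 10572 of all 18193 genes reached the floor on the Smad4-labelled array and 10488 on the control array. No marker signal was 0. The endothelial markers Pecam1, Cldn5, Tie1 and Erg, picked after their values were seen, lay between 0.30 and 1.56 on the Smad4-labelled array. The 6 endothelial markers that reached the floor on that array had signals from 26.1 to 247. Higher and lower therefore describe that array against the other, and a response to Smad4 depletion, a different cell population and a shift in cell type cannot be told apart.

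Of the 10 FGF genes, 3 were at least 2-fold higher on the Smad4-labelled array (Fgf7, Fgfr2 and Fgfr1) and 0 were at least 2-fold lower. Over all 18193 genes, 10.2% were called higher and 10% lower by the same rule. Here and below, that base includes 6612 genes below the floor on both arrays, which could not be called. As deposited, the FGF genes gave the same counts of 3 and 0, beside 9.70% and 12.6% of all genes. The other 7 comprised Fgfr3 and Fgfrl1, which were measured on both arrays and lay within 2-fold, and Fgf1, Fgf2, Fgf10, Fgf18 and Fgfr4, which were below the floor on both. Per probe set, 6 of 23 were called higher and 0 lower, beside 8.85% and 9.79% of all probe sets with 1 gene, and 13 of the 23 were below the floor on both arrays. When signals under the floor are set to the floor, the median log2 ratio of the 10 genes was 0.012, and that of all genes was 0. The first lies next to 0 because 5 of the 10 genes were below the floor on both arrays and counted as 0. It does not show a lack of difference.

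**Figure D1:**
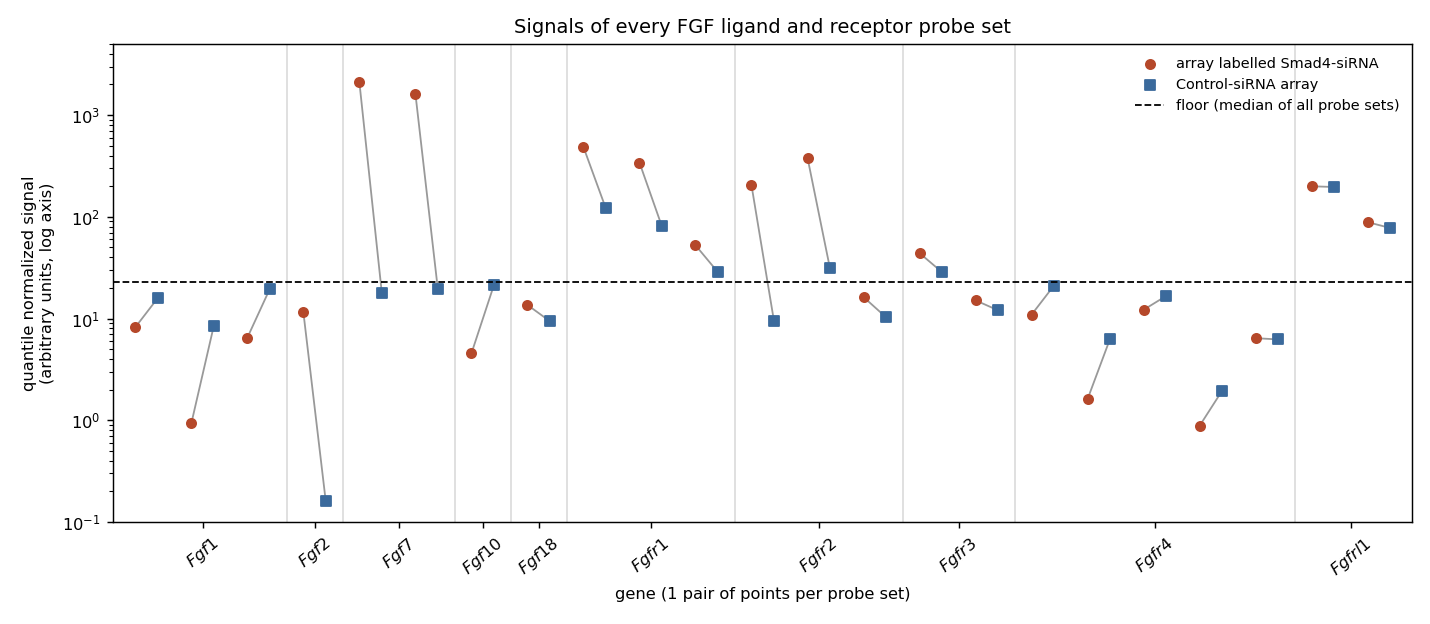
Quantile normalized signal of each FGF probe set (log axis, arbitrary units), with the Smad4-labelled array left of the control array in each pair, joined by a grey line, and a dashed line at the floor of 22.8. In both Fgf7 pairs the Smad4-labelled point is far above the floor and the control point below it, the Fgfrl1 pairs are nearly level, and all Fgf1 and Fgfr4 points lie below the floor.

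Promoter windows are shown for the ligand and the receptor gene that differed most and for Fgfrl1, which was within 2-fold, because the study targeted a DNA-binding signal mediator. They are the 250 bases before the RefSeq start in GRCm38.p6, 5′ to 3′ on the strand of the gene, and that start may not be the one used in these cells. Capitals mark the Smad box (CAGAC, read on both strands) and the GC box (GGGCGG, both strands), which do not overlap each other in these windows. The Fgf7 window is chr2:126034408-126034657 on the plus strand, that of Fgfr2 is chr7:130266809-130267058 on the minus strand, and that of Fgfrl1 is chr5:108693979-108694228 on the plus strand.
Fgf7: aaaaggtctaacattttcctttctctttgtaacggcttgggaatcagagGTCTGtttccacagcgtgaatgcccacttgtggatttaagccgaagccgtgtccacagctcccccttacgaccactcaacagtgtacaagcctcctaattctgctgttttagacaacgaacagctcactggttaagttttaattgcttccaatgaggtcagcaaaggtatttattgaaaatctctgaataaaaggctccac
Fgfr2: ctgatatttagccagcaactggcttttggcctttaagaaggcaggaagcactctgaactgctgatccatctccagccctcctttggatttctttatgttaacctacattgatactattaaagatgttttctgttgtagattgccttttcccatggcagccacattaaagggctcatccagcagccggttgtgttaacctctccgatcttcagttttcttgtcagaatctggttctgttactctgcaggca
Fgfrl1: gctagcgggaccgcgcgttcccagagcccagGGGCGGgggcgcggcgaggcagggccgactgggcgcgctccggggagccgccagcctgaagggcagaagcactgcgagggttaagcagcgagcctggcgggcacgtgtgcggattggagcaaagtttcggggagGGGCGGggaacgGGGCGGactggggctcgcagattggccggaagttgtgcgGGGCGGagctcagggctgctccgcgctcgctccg

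The Fgf7 window holds 1 Smad box, beginning 201 bases before the start, the Fgfr2 window holds 0 and the Fgfrl1 window 0. A Smad box is present in 42.2% of the 32851 promoter windows of the same length, so its presence is common. The palindrome GTCTAGAC, present in 0.167% of windows, was in none of those of the 8 FGF genes that had a window. Among these 8, Fgf2, Fgf7 and Fgf18 had at least 1 Smad box. No window was available for Fgf1 or for Fgfr1, which was called higher. The windows of Fgf7 and Fgfr2 hold 0 GC boxes and have a GC content of 43.6% and 44.0%. The Fgfrl1 window holds 4 GC boxes at 73.6% GC, and the other 5 genes with a window had at least 1 GC box and 61.2% to 77.2% GC. Over all windows, the median GC content was 52.4% and 32.7% held a GC box. A match to these letters is a description and shows no binding.

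Among the 10 genes, the ligand gene Fgf7 showed the largest difference. It encodes keratinocyte growth factor, which mesenchymal cells are known to release and which acts on the IIIb splice form of FGFR2, typical of epithelial cells. Probe set 1422243_at had a signal of 2097 on the Smad4-labelled array and 18.0 on the control array. For 1438405_at the signals were 1621 on the Smad4-labelled array and 19.6 on the control array. Both probe sets were thus far above the floor on the Smad4-labelled array and just below it on the control array. Fgf7 was at least 92.1-fold higher by 1422243_at and at least 71.2-fold higher by 1438405_at. The deposited values before normalization of 1422243_at were 1884 on the Smad4-labelled array and 16.7 on the control array, and those of 1438405_at were 1434 on the Smad4-labelled array and 18.1 on the control array. By its bound, Fgf7 ranked 28th from the top among 11581 genes at or above the floor on at least 1 array.

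The fibroblast markers differed in the same direction. Of those 11 genes, 8 were at least 2-fold higher and 0 lower, beside 10.2% and 10% of all genes. Col1a2 and Col3a1, which encode chains of fibrillar collagens, were at least 324-fold and at least 265-fold higher. Their part in the Fgf7 difference was not tested. In bulk RNA, more cells of a type and more RNA per cell cannot be told apart.

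The other 4 ligand genes had no measurable level on either array. Fgf1, a ligand of all FGF receptor tyrosine kinases, gave 8.21, 0.93 and 6.48 for its 3 probe sets on the Smad4-labelled array and 15.9, 8.43 and 19.5 on the control array. Fgf2, the basic FGF long known as an endothelial mitogen, had signals of 11.5 on the Smad4-labelled array and 0.16 on the control array in its only probe set. Fgf10, which shares its main receptor form with Fgf7, had signals of 4.53 on the Smad4-labelled array and 21.2 on the control array, the second being close below the floor. Fgf18, a ligand known from bone and cartilage, had signals of 13.6 on the Smad4-labelled array and 9.41 on the control array. With the 25th percentile as floor, Fgf10 was called lower and Fgf2 higher, each by a bound. At the floor used here these values have no usable order, and a low level of any of these transcripts was not detectable with this floor.

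Among the receptor genes, Fgfr2 stood farthest apart. Probe set 1433489_s_at had a signal of 381 on the Smad4-labelled array and 31.3 on the control array, a 12.1-fold higher level. Probe set 1420847_a_at had signals of 204 on the Smad4-labelled array and 9.56 on the control array, at least 8.97-fold higher. The third, 1443211_at, was below the floor on both arrays, with 16.3 on the Smad4-labelled array and 10.3 on the control array. Both probe sets that reached the floor carry suffixes that mark sequence shared between transcripts, and in the case of _s_at possibly between genes. Without suffixed probe sets Fgfr2 was below the floor on both arrays and was not called. The files give no splice form, so whether the transcript was the IIIb form, which binds FGF7, or the IIIc form was not measured.

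Fgfr1, the FGF receptor gene most often described in endothelial and mesenchymal cells, was also higher. Its signals were 485 on the Smad4-labelled array and 121 on the control array for 1424050_s_at. They were 341 on the Smad4-labelled array and 80.7 on the control array for 1425911_a_at. For 1436551_at they were 52.5 on the Smad4-labelled array and 28.6 on the control array. All 3 probe sets were above the floor on each array and pointed the same way. The folds were 4.01, 4.23 and 1.84, so the dimmest probe set, the only one with no suffix, stayed within 2-fold. Its log2 ratio was 0.88, against 1.08 as deposited and 1.33 with ratios centred on their median, where it passed 2-fold. The mean log2 ratio over the 3 probe sets was 1.65 with an SD of 0.67 between them, which is wider than the technical SD of 0.47. Among 9479 genes measured on both arrays, Fgfr2 ranked 76th and Fgfr1 382nd from the top by log2 ratio.

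The remaining receptor genes differed little or were not measured. Fgfr3, whose product restrains bone growth, had signals of 44.0 on the Smad4-labelled array and 28.6 on the control array in 1421841_at, a log2 ratio of 0.62. Its other probe set, 1425796_a_at, was below the floor, with 15.1 on the Smad4-labelled array and 12.0 on the control array. Fgfrl1 encodes a receptor that binds FGFs and heparin but lacks the tyrosine kinase domain. In 1447878_s_at it had signals of 200 on the Smad4-labelled array and 196 on the control array, a log2 ratio of 0.02. In 1451912_a_at it had 88.6 on the Smad4-labelled array and 77.7 on the control array, a log2 ratio of 0.19. Both ratios are smaller than the technical SD. For the deposited values they were -0.22 in 1447878_s_at and 0.24 in 1451912_a_at, so the direction in 1447878_s_at depended on the scaling. All 5 probe sets of Fgfr4, a receptor gene best known from liver, were below the floor, between 0.88 and 12.2 on the Smad4-labelled array and between 1.94 and 21.1 on the control array.

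**Figure D2:**
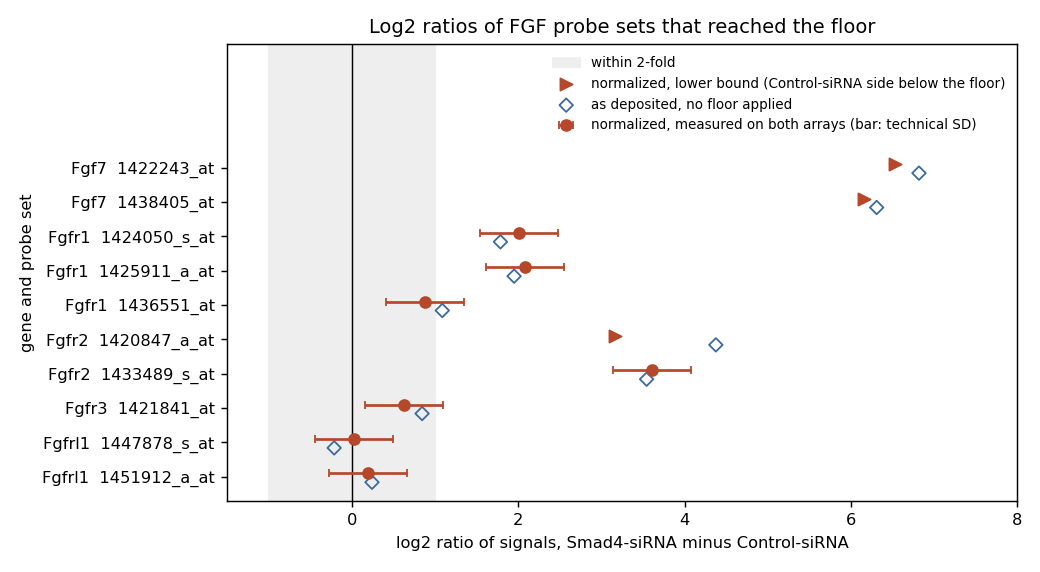
Log2 ratio of signals (Smad4-siRNA minus Control-siRNA) for the 10 FGF probe sets at or above the floor on at least 1 array, with filled circles for values measured on both arrays and bars of 1 technical SD (0.47), triangles for lower bounds, open diamonds for deposited values, and grey shading within 2-fold. Fgf7, Fgfr2 and 2 of the 3 Fgfr1 probe sets lie to the right of the shading in both scalings, and Fgfrl1 lies at about 0.

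**Figure D3:**
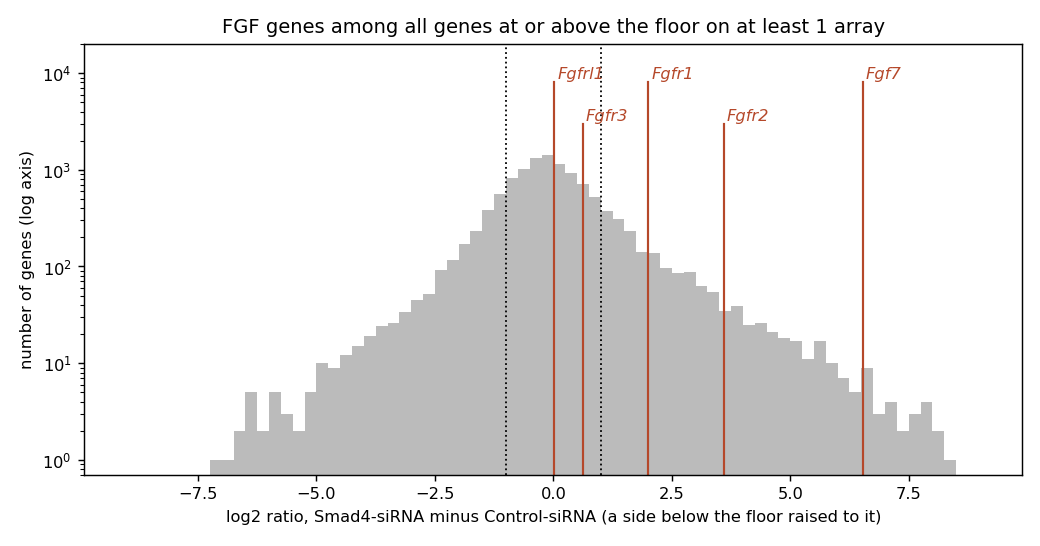
Number of genes (log axis) by log2 ratio, Smad4-siRNA minus Control-siRNA, for the 11581 genes at or above the floor on at least 1 array, with a side below the floor raised to it, dotted lines at 2-fold, and red lines at the 5 FGF genes among them. Fgf7 lies in the far right tail at 6.52, Fgfr2 at 3.60 and Fgfr1 at 2.01, while Fgfr3 and Fgfrl1 lie in the main peak.

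Outside the 10 genes, the other genes listed as FGF ligands were almost all below the floor. Of 17, 1 was at least 2-fold higher and 0 were lower, beside 10.2% and 10% of all genes. Another 1 lay within 2-fold, and 15 were measured on neither array, as were 6612 of all 18193 genes. Fgf11, which encodes an FGF homologue that stays inside the cell, had a signal of 50.6 on the Smad4-labelled array and 3.33 on the control array, at least 2.22-fold higher. That call was lost with the 75th percentile as floor, with a pseudocount and with the median over probe sets. Fgf4, a ligand of early embryos, had signals of 24.8 on the Smad4-labelled array and 41.6 on the control array, a log2 ratio of -0.75. Of the 22 genes listed as ligands, only Fgf7, Fgf4 and Fgf11 reached the floor on either array by their brightest probe set. Fgf11 was counted among them although its product stays inside the cell. All other probe sets of Fgf4 and Fgf11 were below the floor on both arrays.

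Genes of proteins that carry FGFs or assist their receptors were higher more often than lower. Of 21, 10 were at least 2-fold higher and 0 lower, beside 10.2% and 10% of all genes. Another 8 were within 2-fold or bounded under it, and 3 were below the floor on both arrays. The median log2 ratio was 0.81, beside 0 for all genes. That base holds 6612 of 18193 genes below the floor on both arrays, counted as 0 and never called. Neither the shares nor the medians are thus a like comparison. Among the heparan sulphate proteoglycans, the syndecan gene Sdc4 had signals of 2054 on the Smad4-labelled array and 104 on the control array, 19.8-fold higher. Sdc1 was 10.2-fold and Sdc2 3.81-fold higher, and their probe sets agreed in sign. The glypican genes Gpc4 and Gpc6 were at least 26.5-fold and at least 21.2-fold higher. At the other end, Cdh2, whose product N-cadherin can bind FGFR1, had a log2 ratio of -0.64. The ligand carrier gene Fgfbp3 had one of -0.36, and Nptn, which encodes an FGFR1-binding adhesion protein, one of 0.36 with both signs among its probe sets. Flrt3, which encodes an FGFR-binding membrane protein, was below the floor on the Smad4-labelled array at 14.5 and had 45.3 on the control array. That is at least 1.99-fold lower, just short of a call. Its other probe set had 5.13 on the Smad4-labelled array and 47.5 on the control array, at least 2.08-fold lower. The adhesion gene L1cam had 19.1 on the Smad4-labelled array and 24.6 on the control array. The klotho co-receptor genes Kl and Klb, named after their values were seen, were below the floor on both arrays.

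Enzymes that build or edit heparan sulphate went both ways. Of 15 genes with their own probe set, 5 were higher by 2-fold or more and 1 lower, beside 10.2% and 10% of all genes. Another 8 were between and 1 was below the floor on both arrays, with a median of 0.52 (0.11 as deposited). Because 6612 of all 18193 genes were below it on both arrays, the shares are not a like comparison. The sulphatase gene Sulf1, whose product removes sulphate groups on which FGF receptor complexes depend, had signals of 1102 on the Smad4-labelled array and 35.6 on the control array, 30.9-fold higher. The sulphotransferase gene Hs6st2 was 21.9-fold and the chain-building Ext1 3.64-fold higher, and the heparanase gene Hpse at least 5.87-fold higher. Hs3st1, which adds a rare sulphate group, had signals of 55.5 on the Smad4-labelled array and 342 on the control array, 6.16-fold lower. Glce and Hs6st1, also modifying enzymes, had log2 ratios of -0.81 and -0.56. For Glce the ratio was -1.10 as deposited, and its other probe sets were at least 2.65-fold and at least 2.11-fold lower.

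Genes of the FGF signal relay inside the cell, which includes the Ras, ERK, PI3K and phospholipase C pathways and Stat3, were mixed. Of 19 genes with their own probe set, 5 were higher by 2-fold or more, 3 lower and 11 between, with a median of -0.29. The shares of all genes were 10.2% higher and 10% lower. That base holds 6612 of 18193 genes below the floor on both arrays, against 0 here, so it is not a like comparison. As deposited the counts were 4 higher and 6 lower with a median of -0.60, beside 9.70% and 12.6% of all genes. The docking protein gene Gab1 had signals of 175 on the Smad4-labelled array and 8.34 on the control array, at least 7.70-fold higher. Stat3 was 3.43-fold higher, the PI3K subunit gene Pik3r1 2.93-fold and the adaptor gene Shc1 2.74-fold. The Ras activator gene Sos2 was 3.13-fold lower, the small GTPase gene Nras 2.97-fold and the phospholipase gene Plcg1 2.17-fold. In Plcg1 the probe sets ranged from -1.12 to -0.39. The other 7 listed genes were not analysed here.

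Feedback and response genes of FGF and ERK signalling went both ways. Of 20 genes with their own probe set, 7 were higher by 2-fold or more and 7 lower, beside 10.2% and 10% of all genes. Another 5 were between, and 1 was below the floor on both arrays, with a median of 0.20. The base for the shares is not alike, since 6612 of 18193 genes were below the floor on both arrays. As deposited the counts were 5 higher and 7 lower with a median of -0.06, beside 9.70% and 12.6% of all genes. The immediate early genes Fos and Egr1 were 35.7-fold and 19.8-fold higher. Spry1, a Sprouty feedback inhibitor, had signals of 497 on the Smad4-labelled array and 27.2 on the control array, 18.3-fold higher. In the other direction the cyclin gene Ccnd1 was 4.81-fold lower, Myc 3.23-fold and the ERK phosphatase gene Dusp4 3.16-fold. Spry3 had 29.5 on the Smad4-labelled array and 1.01, below the floor, on the control array.

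Some further feedback genes were named after their values were seen. Among Sprouty genes, Spry2 had a log2 ratio of 0.17 (-0.18 as deposited), with both signs among its probe sets, and Spry4 one of -1.41. Dusp6, an ERK phosphatase often read as an FGF response gene, had signals of 692 on the Smad4-labelled array and 1410 on the control array, a log2 ratio of -1.03. Etv5, an ETS factor induced by FGF, had log2 ratios from 0.19 to 1.67 over its probe sets, with 1.10 for the brightest. Il17rd, which encodes an FGF receptor inhibitor, had signals of 186 on the Smad4-labelled array and 32.4 on the control array, a log2 ratio of 2.52.

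**Figure D4:**
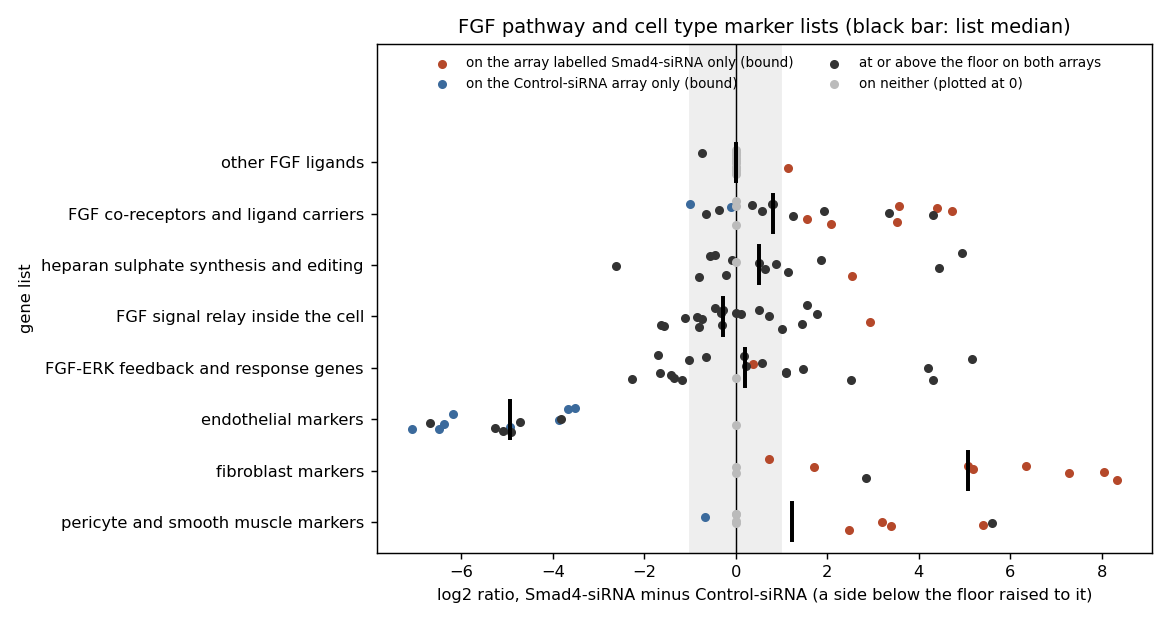
Log2 ratio (Smad4-siRNA minus Control-siRNA, a side below the floor raised to it) of each gene of the 5 FGF pathway lists and of 3 marker lists, with 1 point per gene, coloured by the array on which it reached the floor, black bars at list medians and grey shading within 2-fold. Co-receptors and carriers extend mostly to the right, relay and feedback genes to both sides, and endothelial and fibroblast markers lie far apart, with medians of -4.94 and 5.07.

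Of the 7 marker lists, the endothelial, fibroblast, and pericyte and smooth muscle lists had medians away from 0, at -4.94, 5.07 and 1.23. In the other 4, most genes were below the floor on both arrays and counted as 0. Their medians of 0 were fixed by the floor and do not show a lack of difference. Of the endothelial markers, 14 of 15 were at least 2-fold lower and 0 higher, beside 10% and 10.2% of all genes. Among those lower were Emcn, at least 136-fold, and the nitric oxide synthase gene Nos3, 102-fold. Of the pericyte and smooth muscle markers, 5 of 10 were higher and 0 lower, beside 10.2% and 10% of all genes. The actin gene Acta2 was 48.8-fold higher and the PDGF receptor gene Pdgfrb at least 42.5-fold. The Acta2 value is from a probe set with the suffix _s_at, and its other probe sets were below the floor on both arrays. Epithelial cells are those on which FGF7 is best known to act, and of their 6 markers 2 reached the floor on the Smad4-labelled array and 0 on the control array. Among all 18193 genes, 10572 reached it on the Smad4-labelled array and 10488 on the control array. Epcam was at least 3.58-fold higher, with 81.7 on the Smad4-labelled array and 8.54 on the control array in a probe set with the suffix _x_at, which marks sequence that may be shared with other genes. The other Epcam probe set was below the floor with 4.19 on the Smad4-labelled array and 1.43 on the control array. Krt19 had 39.3 on the Smad4-labelled array and 1.51 on the control array, and the summed epithelial signal was 145 on the Smad4-labelled array and 41.4 on the control array. Astrocyte markers reached the floor for 2 of 6 genes on the Smad4-labelled array and 0 of 6 on the control array. Aldoc was at least 6.39-fold and Slc1a3 at least 2.71-fold higher. Thus 2 of 6 astrocyte markers were called higher and 0 lower, beside 10.2% and 10% of all genes. The other Aldoc probe set was below the floor, with 0.56 on the Smad4-labelled array and 0.59 on the control array. Of the other Slc1a3 probe sets, the 2 with the highest signals had 152 and 148 on the Smad4-labelled array and were at least 6.67-fold and at least 6.51-fold higher. Microglia and leukocyte markers reached the floor for 3 of 7 on each array, with Cd68 23.3-fold lower and Laptm5 at a log2 ratio of -0.77, and none of 7 neuron and oligodendrocyte markers did on either. The part of these cell types in the FGF differences was not tested.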

How the data were processed

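The deposited table holds 1 linear signal intensity for each probe set and array. The submitters' processing notes name MAS5, the maker's summary algorithm, with no version. Its scaling target was not given in the sources used here, nor were detection calls. Of 45101 probe sets, 64 controls were left out. Gene names came from the platform annotation, updated by Entrez identifier through the RefSeq table of GRCm38.p6, which matched 18032 genes. Of the 45037 other probe sets, 34945 had 1 gene, 932 several and 9160 none, and only the first were used.

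The 2% trimmed means were 114 on the Smad4-labelled array and 138 on the control array, so log2 signals were quantile normalized (Python 3.11.15, pandas 2.3.3). Each gene is represented by its probe set with the highest mean log2 signal over both arrays. Groups follow the sample titles. The genes, lists and rules were chosen with earlier results of these data known. Named are all 10 FGF genes, Smad4, per pathway list the 3 highest and 3 lowest ratios measured on both arrays and up to 2 largest bounds each way, and per marker list the 2 genes farthest from 0. Xist, Eif2s3y, Pecam1, Cldn5, Tie1, Erg and the genes so marked in the text were named after their values were seen. Alternatives were other scalings, floors at the 25th and 75th percentile, a pseudocount, the median over probe sets and removal of suffixed probe sets. Calling was tested on simulated data, with known changes put into bright genes only and with less noise than the technical SD. Changes in genes near the floor were not covered. Promoters are from RefSeq.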

Additional observations from a re-analysis of the deposited data

How the results depend on the processing

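Each group had 1 array, so no array could be left out. No paired analysis was possible because each group has 1 sample and the labels give no replicate numbers. Fgf7 was called higher under all 8 alternatives, with log2 ratios from 4.04 (75th percentile as floor) to 6.87. Fgfr2 and Fgfr1 were called higher under 7 of 8, except without suffixed probe sets, where Fgfr2 was below the floor on both arrays and Fgfr1 had a log2 ratio of 0.88. The count of FGF genes higher was then 1 in place of 3. Fgfrl1 has only suffixed probe sets and gave no value there. With log2 ratios centred on their median, Fgfr3 reached 1.09 and the count was 4. The 25th percentile as floor (5.60) gave 1 FGF gene lower, Fgf10 by a bound, 1 more higher, Fgf2 by a bound, and a median of 0.58 in place of 0.012. Other FGF ligands had 3 genes lower with that floor in place of 0, and 0 higher in place of 1 under the 75th percentile as floor (127), the pseudocount or the median over probe sets. Co-receptors and carriers had 1 lower in place of 0 with the lowess trend removed, with the 25th percentile as floor or with the median over probe sets. Heparan sulphate genes had 2 lower in place of 1 as deposited or with the median over probe sets, and 0 without suffixed probe sets. Relay genes had 6 lower in place of 3 as deposited, and 3 higher in place of 5 with the median over probe sets. The other 89 of 104 list counts and FGF medians under an alternative stayed within 1.5 times the value given, or moved by less than the technical SD. The median log2 ratio of genes measured on both arrays was -0.15, and -0.33 as deposited. Signal over background limits the 5 FGF genes below the floor, for which neither presence nor difference can be read.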
